A study of Mus musculus with 56 samples.

Results

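Gene expression in the anterior hypothalamus of day-fed mice was compared between lights-off and lights-on. The comparison used 12 of the 56 mice in the series, the 4 mice on daytime-restricted feeding (DRF) collected at ZT12 and the 8 DRF mice collected at lights-on, 4 at ZT0 and 4 at ZT24, and it covered all 15991 genes that passed a filter on low values. ZT, the zeitgeber time, counts hours from lights-on, and ZT24 is the next lights-on, sampled in other mice than ZT0. All mice were female C57BL/6J, 9 weeks old, kept on 12 h of light and 12 h of dark with normal chow, and were held on their feeding regimen for 7 days. DRF mice had food in the light phase, so ZT12 closed their feeding window and ZT0 and ZT24 closed their nightly fast. Lighting and feeding turned over at the same hours in these mice, and their parts in a difference cannot be told apart within DRF. Mice on nighttime-restricted feeding (NRF), with food in the dark phase under the same lights, were sampled at the same times (4 mice at ZT12, 8 at lights-on) and served to test whether a difference was shared. Levels are given as CPM, read counts scaled to the normalized library size and recovered from the deposited values, and differences as log2(CPM + 1) at ZT12 minus lights-on with a standard error (SE). The normalized library size was between 30076136 and 32034147 reads in the 12 mice.

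The anterior hypothalamus holds the suprachiasmatic nucleus, the light-entrained central clock, together with preoptic and paraventricular cells that govern body temperature, hormone release and energy balance. The molecular clock is a feedback loop in which ARNTL and CLOCK switch on the Per and Cry genes, whose proteins then switch ARNTL and CLOCK off. NR1D1 and NR1D2 (REV-ERB) and the ROR receptors time the transcription of Arntl, and DBP, TEF and HLF carry the rhythm to output genes through the D-box motif. Feeding and fasting act on metabolic genes in parallel. In the liver, fasting raises the genes of fatty acid use, and a meal lowers them.

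Between lights-off and lights-on 12 of 15991 genes (0.075%) differed at an adjusted p-value under 0.05 and had the same direction against ZT0 and against ZT24. Gkn3 and Dbp were higher at ZT12 (0.0125% of genes), and the other 10 (0.0625%) were lower, among them Phyhd1, Fbln5, Pnpla7, Sult1a1, Icosl, Heph, Etnppl, Gjb6 and Slc20a2. In each of the 10 lower genes the 4 ZT12 mice were all below the 8 lights-on mice, and in Gkn3 and Dbp they were all above, as the plot of CPM by mouse shows. Over all genes tested, the ZT12 mice were all below in 121 (0.757%) and all above in 106 (0.663%). The choice of the 12 genes by p-value in these same mice favours genes without overlap, so their separation adds no separate evidence. The 12 genes also each had an unadjusted p-value under 0.05 against ZT0 alone and against ZT24 alone. Both fits reused the mice by which the genes were chosen and add no separate evidence. Before adjustment, 2005 genes (12.5%) had a p-value under 0.05, 1075 of them higher (6.72%) and 930 lower (5.82%). All 2005 had the same direction against both lights-on groups, so that condition removed no gene at this level. Among all genes tested, 65.6% had the same direction against both.

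These counts stand beside the difference between both lights-on groups, which were collected at the same clock time. ZT24 against ZT0 gave 0 genes past the adjusted threshold with limma, and 2529 (15.8%) at an unadjusted p-value under 0.05. For 5 of the 12 genes the unadjusted p-value between ZT24 and ZT0 was itself under 0.05. The count of 12 moved with single mice. It was 0 without ZT12 mouse 2, 3 without ZT12 mouse 1 or without ZT0 mouse 4, 4 without ZT12 mouse 4, 5 without ZT24 mouse 1 or 2 and 21 without ZT0 mouse 2. Against ZT0 alone it was 0 (with 2280 genes, 14.3%, before adjustment) and against ZT24 alone it was 19 (with 1494 genes, 9.34%, before adjustment). On the deposited values as they stand, which are compressed, it was 1, Icosl.

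**Figure D1:**
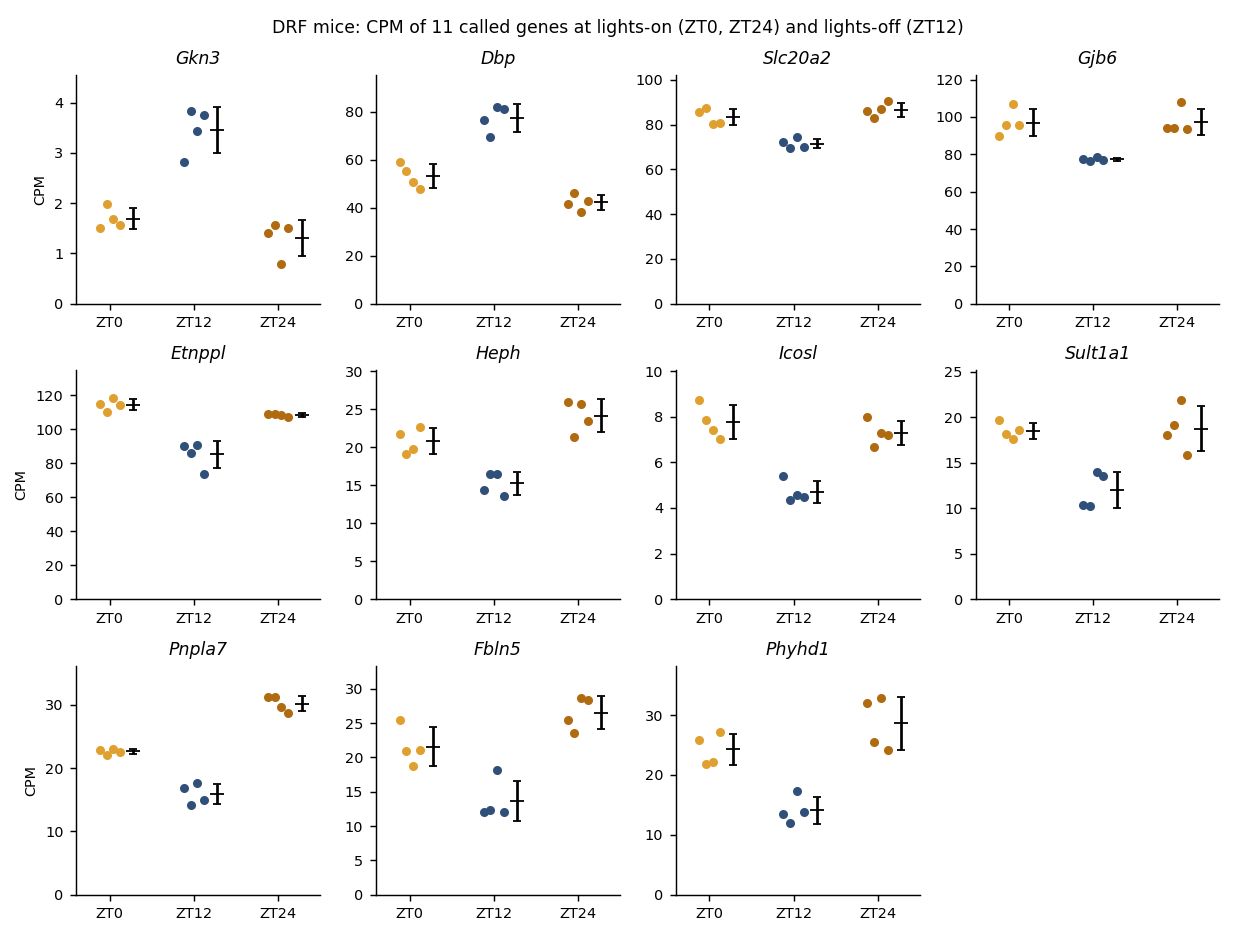
CPM of 11 of the 12 called genes in DRF mice at ZT0, ZT12 and ZT24. Each point is a mouse and the bar beside the points is the mean with the SD over 4 mice; the vertical axes start at 0. In every panel the 4 ZT12 mice do not overlap the 8 lights-on mice: Gkn3 and Dbp sit above them and the other 9 genes below. The genes were chosen by p-value in these mice, which favours such a separation.

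Libraries from ZT12 mice 3 and 4 stood apart in markers of the striatum, a neighbouring forebrain region. The 7 markers, which include Drd1, Drd2, Ppp1r1b, Rgs9, Pde10a and Gpr6, summed to 697 CPM in mouse 3 and 924 CPM in mouse 4, against 257 and 241 CPM in ZT12 mice 1 and 2 and 248 to 408 CPM in the 8 lights-on mice. All 7 markers were higher at ZT12 on average, with a median difference of 0.64, and 2 of them had an unadjusted p-value under 0.05. Markers of the anterior hypothalamus and preoptic area overlapped between the groups, with 510 to 708 CPM at ZT12 and 320 to 821 CPM at lights-on, so the labelled tissue was present in each mouse. Astrocyte markers summed to 1630 to 1690 CPM at ZT12 and 1682 to 1942 CPM at lights-on. In ZT0 mouse 3 the meninges markers summed to 111 CPM and the pituitary markers to 26 CPM, above the 25 to 53.2 and 10.2 to 15.2 CPM of the other mice.

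Without ZT12 mice 3 and 4, 7 genes passed, all lower, and 4 of the 12 were among them. Among these, Sult1a1 was then lower by a log2 difference of -0.79 (adjusted p = 0.0104), Phyhd1 by -0.99 (adjusted p = 0.0483) and Etnppl by -0.33 (adjusted p = 0.0483). The other 3 were Cdkn1a, Cldn5 and Prodh, of which Cdkn1a and Prodh are named because of this result. Of the others, Gkn3, Dbp, Fbln5, Pnpla7, Icosl, Heph, Gjb6 and Slc20a2 no longer passed, with adjusted p-values from 0.055 (Fbln5) to 0.43 (Dbp). None of the 12 genes changed direction, as the plot of differences with and without these mice shows. Their ZT12 mice all lay outside the lights-on range, so leaving mice out could not change the direction. With the striatum marker level as a covariate 6 genes passed, again all lower, 4 of them among the 12. Fewer cells of a type and less RNA per cell cannot be told apart in bulk tissue, and the part of tissue makeup in the differences was not tested beyond these values.

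**Figure D2:**
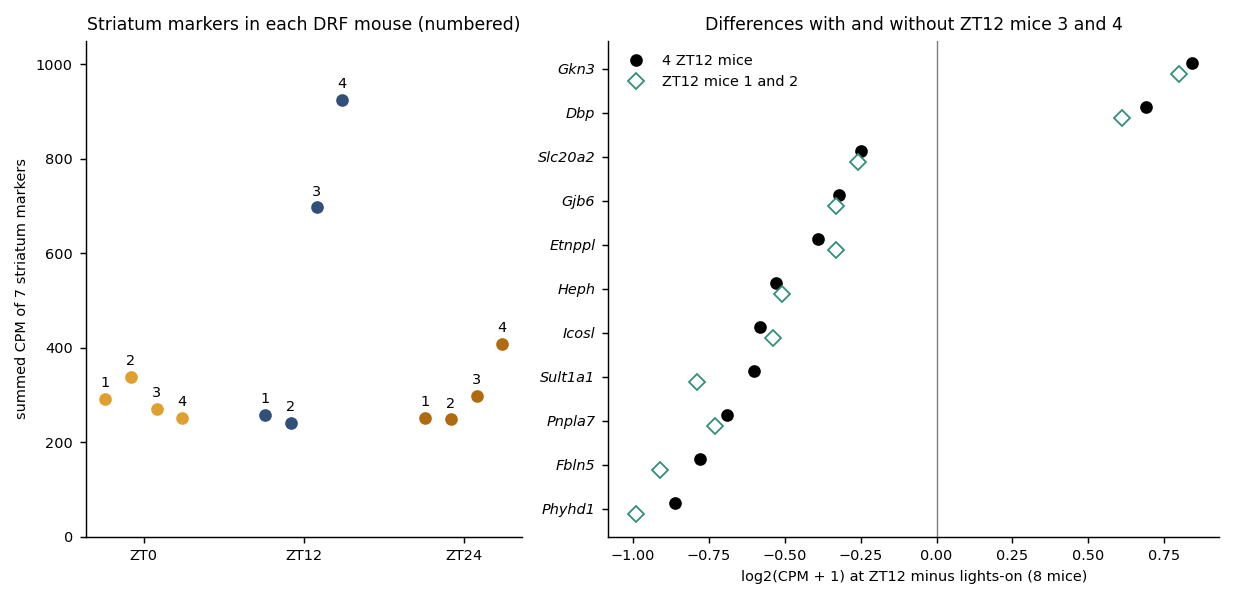
Left, summed CPM of 7 striatum markers in each DRF mouse, with the mouse number beside each point: ZT12 mice 3 and 4 reach 697 and 924 CPM, and the other 10 mice lie between 241 and 408 CPM. Right, log2(CPM + 1) at ZT12 minus lights-on for 11 of the 12 called genes with all 4 ZT12 mice (filled) and with ZT12 mice 1 and 2 only (open), against the same 8 lights-on mice: all 11 keep their sign. The groups did not overlap in these genes, so the sign could not change.

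The promoters of called genes were searched for the motifs of the clock loop. RefSeq windows of 300 bases, from 250 bases before to 50 after a start site on GRCm38.p6, were at hand for 9 of the 12 genes, in 13 windows. The E-box CACGTG, the site that ARNTL and CLOCK bind, was found in Pnpla7 alone of the 9 genes, and it occurs in 7.15% of 32851 mouse windows. The D-box TTATGTAA (TTACATAA on the other strand), which DBP, TEF and HLF bind, was found in Gkn3 alone, and it occurs in 0.938% of windows. The AGGTCA motif of nuclear receptors was found in Phyhd1, Fbln5 and Etnppl, and it occurs in 16.3% of windows. Fbln5 also held TGACG, a part of the cyclic AMP response element, which occurs in 20.8% of windows. The shares count single windows, whereas the matches are given by gene. Phyhd1, Fbln5 and Etnppl each had more than 1 window, which gives a gene more room for a match. The Phyhd1 matches are the same site in overlapping windows. Both strands were searched, and a match is a description of the letters, not a bound site. The windows of Pnpla7 and Gkn3 are shown because they hold the clock motifs, in capitals, read 5′ to 3′ along the gene:
Pnpla7, chr2:24975783-24976082, plus strand: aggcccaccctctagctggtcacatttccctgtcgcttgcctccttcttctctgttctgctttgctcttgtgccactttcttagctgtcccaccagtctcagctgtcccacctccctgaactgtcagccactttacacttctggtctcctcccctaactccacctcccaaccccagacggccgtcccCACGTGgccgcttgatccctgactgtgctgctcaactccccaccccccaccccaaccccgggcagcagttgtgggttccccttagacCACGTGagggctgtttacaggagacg
Gkn3, chr6:87388886-87389185, minus strand: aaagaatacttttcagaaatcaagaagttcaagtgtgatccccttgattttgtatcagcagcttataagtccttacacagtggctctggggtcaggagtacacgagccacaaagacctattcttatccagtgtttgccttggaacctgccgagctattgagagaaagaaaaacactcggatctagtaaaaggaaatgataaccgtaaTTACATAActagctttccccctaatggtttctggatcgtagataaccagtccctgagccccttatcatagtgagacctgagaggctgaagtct
The E-boxes of Pnpla7 begin 63 bases before and 24 bases after the start site, and the D-box of Gkn3 begins 43 bases before it.

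Dbp (13170, chromosome 7) encodes a PAR bZIP transcription factor that is a direct target of the clock. It was measured at 76.5, 69.3, 82.1 and 80.9 CPM in the 4 ZT12 mice, at 59, 55.2, 50.8 and 47.6 CPM at ZT0 and at 41.7, 46, 38.3 and 42.8 CPM at ZT24. The lowest ZT12 mouse was above the highest lights-on mouse, and the ZT24 mice were all below the ZT0 mice. The mean was 77.2 ± 5.78 CPM (SD, n = 4) at ZT12 and 47.7 ± 6.99 CPM (n = 8) at lights-on, a log2 difference of 0.69 (SE 0.10, adjusted p = 0.0213). NRF mice rose by more, with a difference of 1.32 (SE 0.08, adjusted p = 2.66e-07). The difference between the regimens was -0.62 (SE 0.13, adjusted p = 0.00846), and it also passed without ZT12 mice 3 and 4 (-0.70, adjusted p = 0.0268). Dbp was thus higher at lights-off under both regimens and by less in DRF. Without ZT12 mice 3 and 4, the DRF difference itself was 0.61 and its adjusted p-value was 0.43.

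Gkn3 (68888, chromosome 6), a gastrokine of the stomach that also marks endothelial cells of brain arteries, was measured at 2.83, 3.83, 3.44 and 3.75 CPM at ZT12. It was at 1.51, 1.98, 1.69 and 1.57 CPM at ZT0 and at 1.4, 1.56, 0.782 and 1.5 CPM at ZT24. Its lowest mouse had 24 reads, the fewest of any called gene in a mouse. Its mean CPM was 2.31-fold higher at ZT12, and the log2 difference of 0.84 (SE 0.11, adjusted p = 0.0161) was the largest of the higher pair. That difference is smaller than the fold of CPM implies, since 1 is added to each CPM and the levels are low. In NRF the difference was 0.47 (SE 0.16, adjusted p = 0.0819), and the regimens did not differ past the threshold (0.37, SE 0.21, adjusted p = 0.32). Without ZT12 mice 3 and 4 the DRF value was 0.80 (adjusted p = 0.247).

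Phyhd1, Pnpla7 and Sult1a1, among the genes lower at lights-off, encode enzymes. Phyhd1 (227696, chromosome 2) encodes an oxygenase related to the enzyme that breaks down phytanic acid. It was at 13.5, 11.9, 17.3 and 13.8 CPM at ZT12, at 25.8, 21.8, 22.2 and 27.2 CPM at ZT0 and at 32, 25.5, 32.9 and 24.1 CPM at ZT24, a log2 difference of -0.86 (SE 0.12, adjusted p = 0.0161). ZT12 mouse 3 was the highest of its group and still below every lights-on mouse. In NRF the value was -0.33 (SE 0.15, adjusted p = 0.199), and the regimens did not differ past the threshold (adjusted p = 0.134).

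Pnpla7 (241274, chromosome 2), a lysophospholipase of the endoplasmic reticulum and lipid droplets, was at 16.8, 14.2, 17.6 and 15 CPM at ZT12. It was at 22.9, 22.1, 23.1 and 22.6 CPM at ZT0 and at 31.2, 31.3, 29.7 and 28.7 CPM at ZT24. The 3 groups did not overlap at all, and ZT24 lay above ZT0 by 0.40 (unadjusted p = 8.18e-06). The difference from lights-on was -0.69 (SE 0.11, adjusted p = 0.0352). In NRF it was -0.07 (SE 0.12), and the regimens differed by -0.62 (SE 0.17, adjusted p = 0.0341), which was lost without ZT12 mice 3 and 4 (-0.65, adjusted p = 0.12).

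Sult1a1 (20887, chromosome 7), a cytosolic sulfotransferase of phenols, was at 10.4, 10.2, 14 and 13.5 CPM at ZT12, at 19.7, 18.2, 17.6 and 18.6 CPM at ZT0 and at 18.1, 19.1, 21.9 and 15.9 CPM at ZT24. ZT12 mice 1 and 2 were lower than mice 3 and 4, and all 4 were below lights-on (log2 difference -0.60, SE 0.09, adjusted p = 0.0321). Sult1a1 passed in 5 of the 12 fits that left out 1 mouse. It did not pass with all 28 DRF mice in the fit (adjusted p = 0.0668). NRF mice showed 0.05 (SE 0.12), and the regimens differed by -0.65 (SE 0.16, adjusted p = 0.0167; -0.84 and 0.0148 without ZT12 mice 3 and 4).

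Etnppl, Gjb6 and Slc20a2 differed by less in log2 than the other called genes. Etnppl (71760, chromosome 3), the astrocyte enzyme that breaks down phosphoethanolamine, was at 90.1, 86, 90.7 and 73.4 CPM at ZT12. It was at 115, 110, 118 and 114 CPM at ZT0 and at 109, 109, 108 and 107 CPM at ZT24, so the lights-on mice lay in a narrow range. The log2 difference was -0.39 (SE 0.05, adjusted p = 0.0161). In NRF it had the opposite sign, 0.47 (SE 0.07, adjusted p = 0.00147), with 93.6 to 111 CPM at ZT12 and 61.9 to 84.2 CPM at lights-on. The regimens differed by -0.85 (SE 0.09, adjusted p = 1.81e-05), and by -0.80 without ZT12 mice 3 and 4 (adjusted p = 2.56e-04). Etnppl was the only called gene that was past the threshold in both regimens with opposite signs.

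Gjb6 (14623, chromosome 14), which encodes the astrocyte gap junction protein connexin 30, was at 77.3, 76.3, 78.6 and 77.1 CPM at ZT12. It was at 90, 95.6, 107 and 95.5 CPM at ZT0 and at 93.9, 93.9, 108 and 93.4 CPM at ZT24. The ZT12 mice lay between 76.3 and 78.6 CPM and the lights-on mice between 90 and 108 CPM (log2 difference -0.32, SE 0.05, adjusted p = 0.0335). NRF mice showed 0.02 (SE 0.07), and the regimens differed by -0.35 (SE 0.09, adjusted p = 0.0241), which was lost without ZT12 mice 3 and 4 (-0.36, adjusted p = 0.113).

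Slc20a2 (20516, chromosome 8), the sodium-phosphate cotransporter PiT-2, was at 72, 69.6, 74.3 and 70 CPM at ZT12, at 85.4, 87.3, 80.4 and 80.6 CPM at ZT0 and at 85.9, 82.8, 87.1 and 90.3 CPM at ZT24. Its log2 difference was the smallest called, at -0.25 (SE 0.04, adjusted p = 0.0408). The regimens differed by -0.31 (SE 0.06, adjusted p = 0.00498), with 0.06 (SE 0.05) in NRF, and by -0.32 without ZT12 mice 3 and 4 (adjusted p = 0.0291). The DRF difference itself was -0.26 without these mice and did not pass (adjusted p = 0.308), and it passed in 1 of the 12 fits that left out 1 mouse.

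Icosl, Heph and Fbln5 act at the cell surface or outside it. Icosl (50723, chromosome 10), the ligand of the T cell receptor ICOS, was at 5.4, 4.33, 4.58 and 4.46 CPM at ZT12, at 8.74, 7.85, 7.41 and 7 CPM at ZT0 and at 7.98, 6.67, 7.3 and 7.18 CPM at ZT24. It had the smallest adjusted p-value of all genes (0.0157, log2 difference -0.58, SE 0.07), and it passed in 11 of the 12 fits that left out 1 mouse. It was -0.54 without ZT12 mice 3 and 4 and did not pass (adjusted p = 0.184). NRF mice showed 0.11 (SE 0.08), and the regimens differed by -0.69 (SE 0.11, adjusted p = 7.11e-04), also without these mice (-0.65, adjusted p = 0.0136).

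Heph (15203, chromosome X) encodes hephaestin, a copper-dependent ferroxidase that helps iron leave the cell. It was at 14.4, 16.5, 16.5 and 13.6 CPM at ZT12, at 21.7, 19.1, 19.8 and 22.7 CPM at ZT0 and at 26, 21.4, 25.7 and 23.5 CPM at ZT24 (log2 difference -0.53, SE 0.08, adjusted p = 0.0352). NRF mice showed -0.15 (SE 0.10), and the regimens did not differ past the threshold (adjusted p = 0.123). Heph passed in 2 of the 12 fits that left out 1 mouse.

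Fbln5 (23876, chromosome 12) encodes fibulin-5, which assembles elastic fibres. It was at 12, 12.4, 18.1 and 12.1 CPM at ZT12, at 25.5, 21, 18.7 and 21.1 CPM at ZT0 and at 25.5, 23.6, 28.6 and 28.3 CPM at ZT24. ZT12 mouse 3, at 18.1 CPM, came close to ZT0 mouse 3, at 18.7 CPM, and the other 3 ZT12 mice were at or below 12.4 CPM. The log2 difference was -0.78 (SE 0.12, adjusted p = 0.0352) in DRF and -0.37 (SE 0.15, adjusted p = 0.132) in NRF, and the regimens did not differ past the threshold (adjusted p = 0.267). Fbln5 and Pnpla7 each passed in 3 of the 12 fits that left out 1 mouse. Dbp and Gjb6 each passed in 5 of these fits, Phyhd1 in 8, and Gkn3 and Etnppl in 10.

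**Figure D3:**
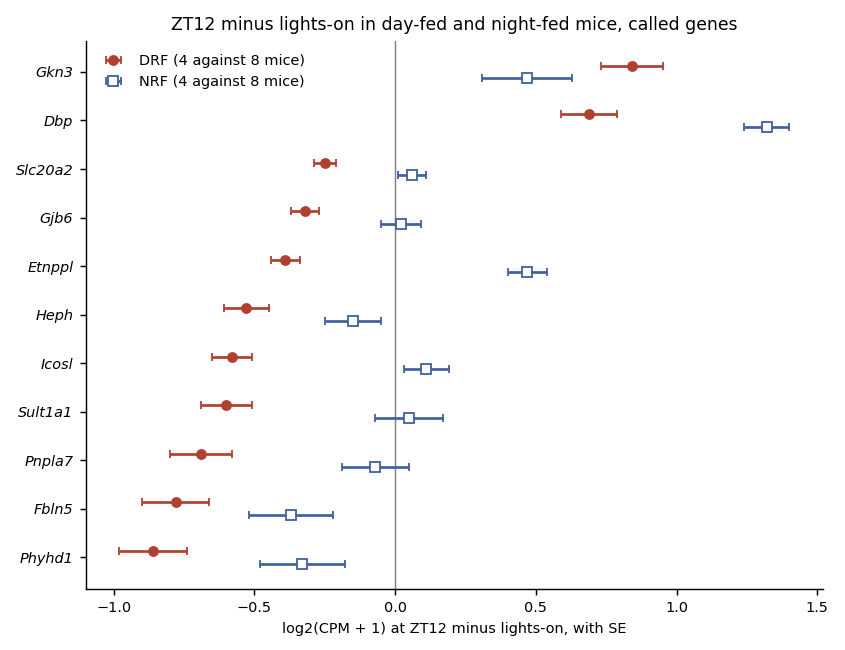
Log2(CPM + 1) at ZT12 minus lights-on for 11 of the 12 called genes in DRF (filled circles) and NRF (open squares), 4 against 8 mice each, with the SE as bars. Dbp is at 0.69 in DRF and 1.32 in NRF, Etnppl at -0.39 and 0.47, and the NRF values of Slc20a2, Gjb6, Icosl, Sult1a1 and Pnpla7 lie between -0.07 and 0.11.

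Over the 12 genes, 7 had the same sign in NRF, 3 passed the adjusted threshold in NRF, Dbp and Etnppl among them, and for 7 the difference between the regimens passed it. The DRF mice by which the 12 genes were chosen also enter the regimen comparison. The choice favours a difference between the regimens, and the count is no separate evidence of one. Over all genes tested, the regimens differed for 840 (5.25%), and NRF mice alone differed between ZT12 and lights-on for 1400 (8.75%). The 840 fell to 193 without ZT12 DRF mice 3 and 4. It was 129 without mouse 3, 202 without mouse 1 and 528 without mouse 4 of every group.

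The 7 time points placed most of the lower genes at their trough at ZT12. In DRF, the lowest mean of Phyhd1, Fbln5, Pnpla7, Icosl, Heph and Gjb6 was at ZT12, that of Sult1a1 and Etnppl at ZT8 and that of Slc20a2 at ZT16. Phyhd1 went from 24.3 ± 2.64 CPM (SD, n = 4) at ZT0 to 17.4 ± 2.98 at ZT4, 16.2 ± 2.55 at ZT8 and 14.1 ± 2.3 at ZT12, and then to 25.6 ± 2.84 at ZT16, 27 ± 3.89 at ZT20 and 28.6 ± 4.49 at ZT24. The lower means were at ZT4 to ZT12, in the light phase and the feeding window, which coincide in DRF. The higher ones were at ZT16 to ZT24 and at ZT0, in the dark phase and the fast or at their end. The parts of light and feeding in this course cannot be told apart. Pnpla7 was also lowest at ZT12, with its highest mean of 32.8 ± 4.42 CPM at ZT20. The NRF means of Pnpla7 stayed between 18.2 and 21.2 CPM over the 7 time points, and those of Phyhd1 between 15.3 and 19.3 CPM. Dbp had its highest DRF mean at ZT12, close to the 74.7 CPM of ZT8, and Gkn3 at ZT16, with 3.78 ± 1.45 CPM. These courses describe the genes after the choice at ZT12 and lights-on and are no test of rhythm.

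**Figure D4:**
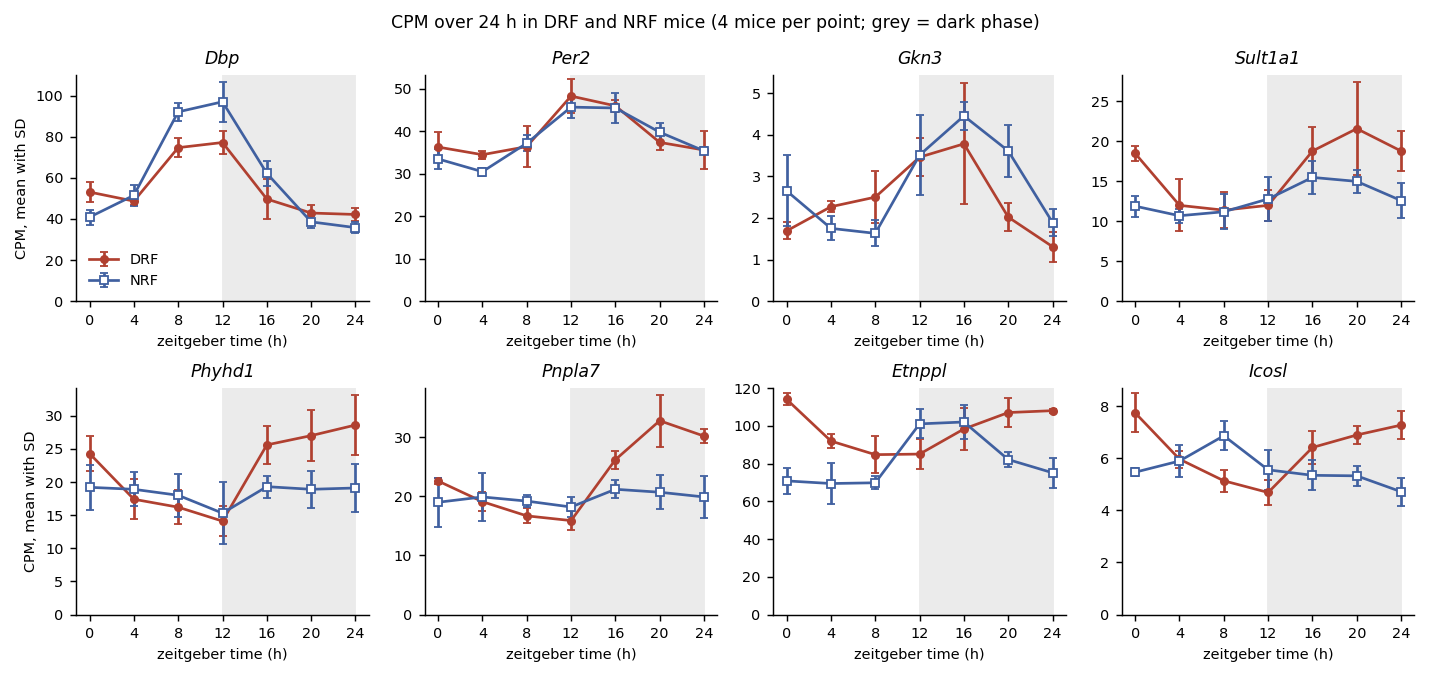
CPM of 8 genes over the 7 time points in DRF (filled circles) and NRF (open squares), as the mean with the SD over 4 mice; grey marks the dark phase and the vertical axes start at 0. In DRF, Phyhd1, Pnpla7 and Icosl have their lowest mean at ZT12, and Etnppl is low at ZT8 and ZT12, where its NRF mean goes from 69.8 to 101 CPM; Dbp and Per2 are highest at ZT12 in both regimens.

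Clock genes other than Dbp did not pass the adjusted threshold in DRF. Among the 10 repressors of the loop, all had a positive difference and 6 had an unadjusted p-value under 0.05, all higher at ZT12 (background 6.72%), with a median of 0.17 against 0.01 over all genes. These 6 were Per2, Per3, Nr1d1, Nr1d2, Bhlhe41 and Ciart, and 4 of the 10 were left without ZT12 mice 3 and 4 (background then 1.89%). Between ZT24 and ZT0, 1 of the 10 had an unadjusted p-value under 0.05, Per3. Per2 was at 47.9, 43.4, 49 and 53 CPM at ZT12, at 39.4, 35.7, 38.6 and 31.6 CPM at ZT0 and at 32.1, 40.1, 31.3 and 38.9 CPM at ZT24. The ZT12 mice were all above lights-on, with a log2 difference of 0.42 (SE 0.08) that did not pass (adjusted p = 0.078). In NRF Per2 differed by 0.40 (SE 0.05), and the regimens by 0.02 (SE 0.10, adjusted p = 0.936).

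Per3 was at 80.4, 76.3, 77 and 71.7 CPM at ZT12, at 63.8, 63, 71.9 and 64.3 CPM at ZT0 and at 55.9, 54.8, 53.6 and 53.3 CPM at ZT24 (0.35, SE 0.08, adjusted p = 0.137). ZT12 mouse 4 and ZT0 mouse 3 kept the groups from separating. Tef was between 325 and 372 CPM at ZT12 and between 293 and 315 CPM at lights-on, with no overlap, and its difference of 0.20 (SE 0.04) did not pass (adjusted p = 0.109). Of the 6 activators, 2 were lower at an unadjusted p-value under 0.05 (background 5.82%) and 3 without ZT12 mice 3 and 4 (background then 2.3%). Arntl was at 28.3, 27.3, 28.7 and 32.5 CPM at ZT12 and between 30.4 and 35.9 CPM at lights-on (-0.22, SE 0.06, adjusted p = 0.211). The values of Clock, Rora and Rorb were between -0.13 and -0.04. Npas2 was at 11.5, 12.3, 23.8 and 25.4 CPM at ZT12, the higher pair in mice 3 and 4, and between 13.8 and 20.9 CPM at lights-on. Its difference of 0.06 (SE 0.19) turned to -0.43 without ZT12 mice 3 and 4 (unadjusted p = 0.00635).

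The regimens differed in 6 of these 20 clock and output genes (background 5.25%). In Ciart, an inhibitor of ARNTL and CLOCK, ZT12 exceeded lights-on by 0.29 in DRF and 1.03 in NRF (difference -0.74, SE 0.12, adjusted p = 7.15e-04). Per1 was at 0.07 in DRF and 0.54 in NRF (difference -0.47, SE 0.13, adjusted p = 0.0346), and Bhlhe41 at 0.14 and 0.38 (-0.24, SE 0.07, adjusted p = 0.0457). Nfil3, which competes with DBP for the D-box, was at -0.01 in DRF and -0.42 in NRF (0.41, SE 0.09, adjusted p = 0.00568), and Arntl at -0.22 and -0.46 (0.24, SE 0.07, adjusted p = 0.0433). With Dbp, these 6 genes each had the value nearer to 0 in DRF. Without ZT12 mice 3 and 4 the difference passed for Dbp, Per1 (-0.62, adjusted p = 0.0314) and Ciart (-0.82, adjusted p = 0.00379) and not for Arntl (0.18, adjusted p = 0.284), Bhlhe41 (-0.24, adjusted p = 0.151) or Nfil3 (0.37, adjusted p = 0.0555).

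**Figure D5:**
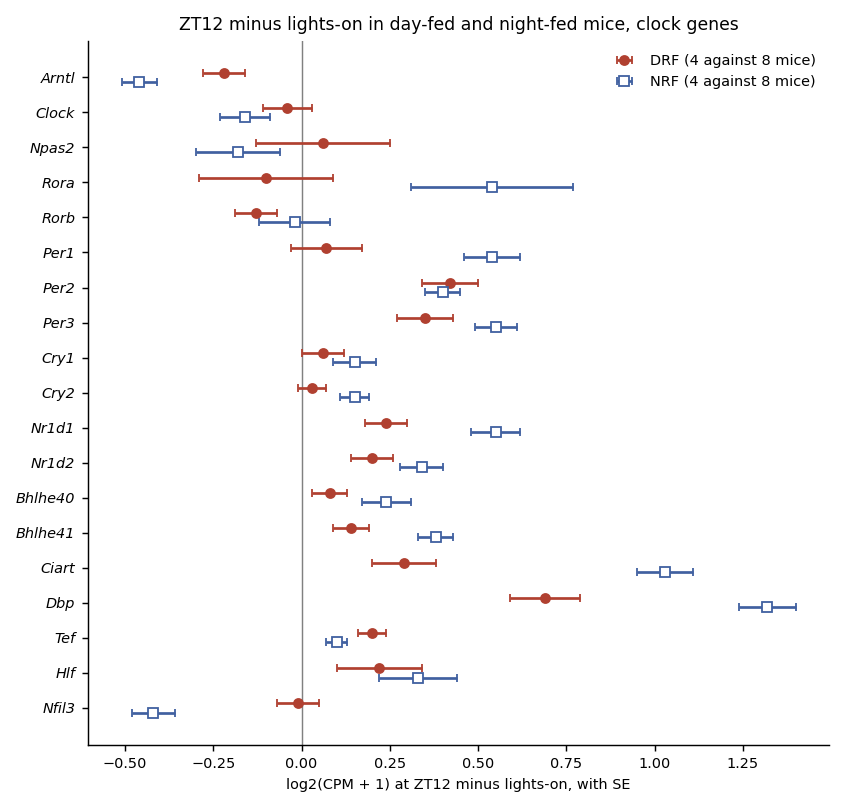
Log2(CPM + 1) at ZT12 minus lights-on for 19 clock and output genes in DRF (filled circles) and NRF (open squares), 4 against 8 mice each, with the SE as bars. Dbp has the largest value in both regimens; Per2 lies at 0.42 and 0.40, and Per1, Ciart, Nr1d1 and Arntl lie nearer to 0 in DRF than in NRF.

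The 12 genes next in order of p-value did not pass, with adjusted p-values of 0.0582 to 0.071. Lower at ZT12 were Ttll3, H1f2, Col5a3, Plat, Rasa2, Cldn5, Srsf3, Mt2 and Hr, and higher were Emcn, Rgcc and Ly6c1, each without overlap between the groups. Over all genes tested, the ZT12 mice were all below in 0.757% and all above in 0.663%. A choice by p-value in the same mice favours genes without overlap. Cldn5, Emcn and Ly6c1 are made by cells of the vessel wall. Cldn5, the tight junction protein of the blood-brain barrier, was at 15.2, 16.5, 17.4 and 20.9 CPM at ZT12 and between 21.1 and 24.9 CPM at lights-on (-0.41, SE 0.07, adjusted p = 0.0686). It was also lower in NRF, by -1.07 (SE 0.07, adjusted p = 2.66e-07), and the regimens differed by 0.66 (SE 0.10, adjusted p = 4.70e-04). Emcn, endomucin of veins and capillaries, was at 6.94, 7.27, 7.26 and 8.33 CPM at ZT12 and between 4.98 and 6.14 CPM at lights-on (0.36, SE 0.07, adjusted p = 0.0686). Ly6c1, an endothelial surface protein, was between 29.7 and 38.1 CPM at ZT12 and between 23.8 and 28.5 CPM at lights-on (0.33, SE 0.06, adjusted p = 0.0686). The 8 endothelial and mural markers summed to 242 to 276 CPM at ZT12 and 242 to 293 CPM at lights-on, so their total overlapped between the groups. Of the 8, 2 were lower and 0 higher at an unadjusted p-value under 0.05 (backgrounds 5.82% and 6.72%). Between ZT24 and ZT0, 5 of the 8 had such a p-value (background 15.8%).

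Mt2 and Hr had opposite signs under the 2 regimens. Mt2, a metallothionein that glucocorticoids and zinc induce, was at 90.5, 87.2, 102 and 94.2 CPM at ZT12 and between 113 and 161 CPM at lights-on in DRF (-0.52, SE 0.10, adjusted p = 0.071). In NRF it was higher at ZT12, by 0.72 (SE 0.12, adjusted p = 0.00196). Hr, a corepressor induced by thyroid hormone, was at 33.3, 36.8, 25.9 and 26.9 CPM at ZT12 and between 38.1 and 56 CPM at lights-on in DRF (-0.61, SE 0.11, adjusted p = 0.071), and differed by 0.77 (SE 0.12, adjusted p = 0.00176) in NRF. The regimens differed by -1.24 (SE 0.16) for Mt2 and by -1.37 (SE 0.18) for Hr (adjusted p = 1.79e-04 each).

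Hif3a, an oxygen-regulated transcription factor that glucocorticoids can induce, had the smallest p-value for a difference between the regimens. In DRF it was at 13.7, 12.8, 12.8 and 11.3 CPM at ZT12 and between 9.21 and 14.5 CPM at lights-on, with a difference of 0.11 (SE 0.10). In NRF it was between 20.3 and 25.4 CPM at ZT12 and between 2.11 and 5.45 CPM at lights-on. The regimens differed by -2.36 (SE 0.19, adjusted p = 1.08e-07). Arrdc2, an arrestin-domain protein, and Eva1a, a regulator of autophagy, showed the same order, with -0.14 and -0.01 in DRF and 0.81 and 0.75 in NRF. On the positive side, the cochaperone Dnaja4 was at 0.21 in DRF and -0.37 in NRF, the chaperone Hsph1 at 0.14 and -0.62, the collagen hydroxylase P4ha1 at 0.28 and -0.56, and the matrix protease Mmp14 at -0.32 and -1.18.

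Glucocorticoid targets as a list held Sult1a1 as their single called gene in DRF. At an unadjusted p-value under 0.05, 2 of 17 measured members were higher (background 6.72%) and 4 lower (background 5.82%). The higher members were Tsc22d3 (0.28, SE 0.08) and Zbtb16 (0.49, SE 0.16), and the lower ones Sult1a1, Cdkn1a (-0.54, SE 0.10), Mt1 (-0.39, SE 0.11) and Mt2. The regimens differed past the threshold for 10 of the 17, all with the lower value in DRF (background 2.58%), and for 12 without ZT12 mice 3 and 4 (over all genes then 1.21% in either direction). Sgk1, a kinase that glucocorticoids induce quickly, was at 0.06 (SE 0.26) in DRF, with a regimen difference of -1.69 (adjusted p = 0.00117).

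Of 21 cytosolic heat-shock genes, the regimens differed for 14, all with the higher value in DRF (background 2.68%), and for 10 without ZT12 mice 3 and 4 (over all genes then 1.21% in either direction). Hsp90aa1, Hspa4, Bag3 and Cacybp were among the 7 that did not pass. In DRF alone 7 of the 21 had an unadjusted p-value under 0.05, all higher at ZT12 (background 6.72%), and 0 were called, with a median of 0.11. Dnajb1, an HSP40 cochaperone, was at 87.8 ± 16.7 CPM (n = 4) at ZT12 and 68.7 ± 7.27 CPM (n = 8) at lights-on (0.34, SE 0.10, adjusted p = 0.262), and Hspa8, the abundant constitutive HSP70, at 2687 ± 142 and 2492 ± 147 CPM (0.11, SE 0.05, adjusted p = 0.383). The 7 became 2 without ZT12 mice 3 and 4 (background then 1.89%), and 8 of the 21 had an unadjusted p-value under 0.05 between ZT24 and ZT0 (background 15.8%). Of 18 chaperones of the endoplasmic reticulum, 4 were higher at an unadjusted p-value under 0.05 (background 6.72%) and 10 differed between the regimens (background 5.25%). These counts became 0 (background then 1.89%) and 4 (background then 1.21%) without ZT12 mice 3 and 4.

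The list of ethanolamine and astrocyte genes held both Etnppl and Gjb6. Of its 11 measured members, 5 were lower (background 5.82%) and 1 higher (6.72%) at an unadjusted p-value under 0.05, and 4 and 2 without ZT12 mice 3 and 4 (backgrounds then 2.3% lower and 1.89% higher). The other lower members were Fabp7, a fatty acid binding protein of glia (-0.39, SE 0.13, adjusted p = 0.305), Gja1, which encodes connexin 43 (-0.13, SE 0.05, adjusted p = 0.35), and the glutamate transporter Slc1a3 (-0.14, SE 0.03, adjusted p = 0.146). Kcnj10, an astrocyte potassium channel, was at 0.18 (SE 0.06, adjusted p = 0.266). Among 6 astrocyte markers, 3 had an unadjusted p-value under 0.05, all lower (background 5.82%): Aldh1l1 (-0.19, SE 0.05), Aldoc (-0.13, SE 0.05) and Sox9 (-0.17, SE 0.05). Of the 3, Aldh1l1 was left without ZT12 mice 3 and 4 (background then 2.3%). Their part in the differences of Etnppl and Gjb6 was not tested.

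Of 19 genes of fatty acid oxidation and ketone use, 4 were lower at an unadjusted p-value under 0.05 (background 5.82%) and 1 was higher (background 6.72%), with a median of -0.03. The count was 1 in each direction without ZT12 mice 3 and 4 (backgrounds then 2.3% and 1.89%). Cpt1a, which admits fatty acids to mitochondria, was at 33.6 ± 0.82 CPM at ZT12 and 35.9 ± 1.31 CPM at lights-on (-0.09, SE 0.04, adjusted p = 0.376). Ppara, the nuclear receptor of the fasting response in liver, was the higher member (0.21, SE 0.06, adjusted p = 0.266). Of 18 insulin and FOXO fasting-response genes, 3 were higher and 2 lower at that level, and 1 and 2 without these mice. The higher ones were the pseudokinase gene Trib2 (0.18, SE 0.05) and the transcription factors Foxo6 (0.36, SE 0.16) and Klf15 (0.12, SE 0.05). Of the lower pair, Angptl4, a lipase inhibitor raised by fasting, was at 3.48 ± 0.868 CPM at ZT12 and 5.5 ± 0.879 CPM at lights-on (-0.55, SE 0.12, adjusted p = 0.129), and Txnip, a glucose-responsive gene, at 20.2 ± 2.64 and 27 ± 4.27 CPM (-0.39, SE 0.12, adjusted p = 0.262). Of 22 genes of amino acid degradation and the ATF4 response, 4 were lower and 2 higher at that level, and 2 and 1 without these mice. Pipox, an oxidase of pipecolic acid and sarcosine, was higher (0.35, SE 0.10, adjusted p = 0.259), as was Bckdhb, a subunit of the branched-chain keto acid dehydrogenase (0.10, SE 0.04, adjusted p = 0.376). Prodh, the first enzyme of proline breakdown, was at 19.7, 17.3, 23.5 and 22.6 CPM at ZT12 and between 24 and 28.5 CPM at lights-on (-0.33, SE 0.07, adjusted p = 0.129), and it passed without ZT12 mice 3 and 4 (-0.48, adjusted p = 0.0486).

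Peptides of the suprachiasmatic nucleus did not differ past the threshold. Of 16 peptides, receptors and regional genes, 0 were called and 2 were lower at an unadjusted p-value under 0.05 (background 5.82%), Vipr2, the receptor of VIP (-0.36, SE 0.15, adjusted p = 0.365), and Rasl11b, a small GTPase (-0.30, SE 0.11, adjusted p = 0.32). Avp was at 195 ± 53.6 CPM at ZT12 and 169 ± 64.7 CPM at lights-on, and Vip at 12.2 ± 1.74 and 13.1 ± 4.96 CPM. The spread between mice of these region-bound genes was wide (for Avp, a difference of 0.29 with an SE of 0.32), which limits the size of change that could be detected in them.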

How the data were processed

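RNA of the anterior hypothalamus of 56 mice was sequenced as poly(A) libraries. Per the authors' methods and the submitters' processing notes, reads were filtered with SOAPnuke, mapped with HISAT2, aligned to reference genes with Bowtie2 and quantified with RSEM (builds mm10 and GRCm38.p6), and TMM-normalized in edgeR. The deposited values, named TPM and treated here as a score, are compressed. In genes with few reads, the steps between values matched TMM-normalized log2(CPM + 1), divided by exon length and scaled to the same total per mouse, with a median relative deviation of 4.22e-08 over 874 genes. These steps were undone with GENCODE M21 exon lengths, and 17206 of 17564 genes gave log2(CPM + 1). Of these, 15060 resolved into whole reads (within 0.05 in at least 90% of mice). Dbp, Sult1a1 and Slc20a2 gave reads to 2 decimals, as RSEM assigns where reads are shared. CPM therefore rests on this reconstruction, and whether the counting used strand is not given in the sources used here.

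The test covered 15991 genes, those whose deposited value reached 1 or more in 80% or more of the 56 mice. The 4 ZT12 and 8 lights-on DRF mice were fitted with limma (version 3.58.1 in R 4.3.3, empirical Bayes with an intensity trend, two-sided, Benjamini-Hochberg over all genes tested). Calls needed an adjusted p-value under 0.05 and the same direction against ZT0 and ZT24. The regimens were compared by the interaction of regimen and phase over 24 mice. Neither the labels nor the methods name litters or cages, and each replicate is a mouse. Named genes were up to 12 called genes in each direction, filled up by p-value to 24, the clock genes, called members of lists and 4 genes in each direction by interaction p-value. The comparison, members and lists were chosen with earlier results of these data known. The fit was tested on simulated data. A few genes that entered the counts are not reported here by name. Alternatives covered scale, pseudocount, filter, centring, weights, trends with length and GC content, the samples in the fit, and each mouse left out; the covariates and the fits without ZT12 mice 3 and 4 were chosen after seeing the data.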

Additional observations from a re-analysis of the deposited data

Results flagged for a closer look

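Single mice stood apart in 9 of 78 groups of 4 mice, where chance gives about 1 in 20; the value is the gap to the nearest mouse divided by the range of the group, called by Dixon's 95% critical value. Among called genes, the highest mouse stood apart for Gjb6 at ZT24 (0.961) and Fbln5 at ZT12 (0.934). Among summed markers, the highest mouse stood apart for astrocytes at ZT0 (0.86), oligodendrocyte precursors at ZT24 (0.894), meninges at ZT0 (0.95), pituitary at ZT0 (0.895) and thalamus and cortex at ZT12 (0.876). The lowest mouse stood apart for ependymal cells and tanycytes (0.89) and meninges (0.868), both at ZT24. The highest meninges and pituitary sums at ZT0 belonged to mouse 3. The striatum markers of ZT12 mice 3 and 4 lay outside this measure, since a pair of high mice leaves no gap to the nearest.

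The difference between ZT12 and lights-on itself differed between DRF and NRF (interaction, limma, adjusted p-value under 0.05) for 24 named genes. Of the called genes, these were Etnppl (-0.85), Icosl (-0.69), Sult1a1 (-0.65), Dbp (-0.62), Pnpla7 (-0.62), Gjb6 (-0.35) and Slc20a2 (-0.31). Of the clock genes they were Ciart (-0.74), Per1 (-0.47), Bhlhe41 (-0.24), Arntl (0.24) and Nfil3 (0.41). Of the genes next by p-value they were H1f2 (-0.78), Cldn5 (0.66), Emcn (0.55), Mt2 (-1.24) and Hr (-1.37). These and the called genes were chosen by their difference in the same DRF mice. Those chosen by this p-value were Hif3a (-2.36), Arrdc2 (-0.95), Eva1a (-0.76), Dnaja4 (0.57), Hsph1 (0.76), P4ha1 (0.84) and Mmp14 (0.87). Without ZT12 DRF mice 3 and 4, Pnpla7, Gjb6, Arntl, Bhlhe41, Nfil3, H1f2 and Emcn no longer passed, with differences of -0.65, -0.36, 0.18, -0.24, 0.37, -0.74 and 0.50.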

How the results depend on the processing

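The count of genes that differed between ZT12 and lights-on, 12 as reported, was 30 with trends with length, GC content and level removed, 30 with ZT0 and ZT24 as 2 groups, 63 with all 28 DRF mice in the fit, 200 with all 56 mice, 19 against ZT24 alone, 0 against ZT0 alone, 1 on the deposited values and, with alternatives chosen after seeing the data, 6 with the striatum marker level as a covariate and 7 without ZT12 mice 3 and 4. It was 0 to 21 with 1 mouse left out. With a pseudocount of 0.1, no filter, a stricter filter, centring, array weights, voom or both striatum and tuberal covariates it was within 1.5 times of 12, between 10 and 18. The genes behind a like count could change. Of the 12 reported genes, 7 were called with both covariates, 9 with voom, 10 with array weights and all 12 with the other settings of this group. The regimen count of 840 was 1575 with trends removed, 327 with the striatum covariate, 524 with both covariates, 193 without ZT12 DRF mice 3 and 4, and 129 to 654 with 1 replicate number left out. The count of 0 between ZT24 and ZT0 was 1 with a pseudocount of 0.1, 2 with the stricter filter, 2 with centring, 1 with array weights and 2 with trends removed. The cause of these moves was not tested.

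With the replicate number as a block, 7 genes were called in place of 12 and 1 in place of 0 between ZT24 and ZT0. No source says that a number marks a shared litter, cage or day. Correlations of same-numbered mice ran from -0.18 to 0.47. Those of number 1 were 0.309, 0.474 and 0.304, while numbers 2, 3 and 4 each had pairs under 0.1, and 4 of 12 mice correlated best with their own number.

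Over their alternatives the 12 called genes kept their direction in all 345 fits and stayed past the threshold in 216 of them. In the fits that only left out mice the direction could not change, since the groups did not overlap. Reversals touched 6 clock genes. Clock was at 0.0079 with trends removed, 0.0219 with both covariates, 0.0489 against ZT0 alone and 0.01 without ZT12 mice 3 and 4. Npas2 was at -0.2569 with the striatum covariate, -0.2278 with both, -0.0668 against ZT24 alone and -0.4314 without ZT12 mice 3 and 4. Rora was at 0.0286, 0.1385, 0.0738 (against ZT0 alone) and 0.1808 under the like settings. Per1 was at -0.0542, -0.0439 and -0.0755, and Cry2 at -0.0251, -0.0251 and -0.0385, with the striatum covariate, both covariates and without ZT12 mice 3 and 4. With 1 mouse left out, Clock ranged from -0.0926 to 0.0047, Npas2 from -0.1165 to 0.2438, Rora from -0.2955 to 0.0518, Cry2 from -0.0076 to 0.0644 and Nfil3 from -0.0614 to 0.018. With 4 mice at ZT12, small differences and genes with few reads could be missed.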

Other observations

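Subunits of the respiratory chain and ATP synthase had mostly small positive differences at lights-off in DRF. Of 81 measured subunits, 77 had a positive value, with a median of 0.08 against 0.01 over all genes, and 15 were higher at an unadjusted p-value under 0.05 (over all genes 6.72%), with 0 called. Cox6c, a subunit of cytochrome c oxidase, was at 130 ± 11.1 CPM (SD, n = 4) at ZT12 and 108 ± 11.6 CPM (n = 8) at lights-on (0.26, SE 0.08, adjusted p = 0.262), and Ndufs8, a subunit of complex I, at 56.3 ± 3.47 and 49.6 ± 3.46 CPM (0.18, SE 0.06, adjusted p = 0.268). Without ZT12 mice 3 and 4, the median was 0.01 and 1 of the 81 was higher at that level (over all genes then 1.89%). Of 82 cytosolic ribosomal proteins 2 were higher at an unadjusted p-value under 0.05 (over all genes 6.72%), and 32 had such a p-value between ZT24 and ZT0 (over all genes 15.8%).

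Of 12 splicing and paraspeckle factors, 5 were lower at an unadjusted p-value under 0.05 (over all genes 5.82%) and 1 without ZT12 mice 3 and 4 (then 2.3%). Srsf3, a splicing factor of the SR family, was at 101 ± 3.78 CPM at ZT12 and 116 ± 3.62 CPM at lights-on (-0.20, SE 0.04, adjusted p = 0.0686). The cold-inducible RNA-binding proteins Cirbp (-0.20, SE 0.15) and Rbm3 (-0.11, SE 0.21) overlapped between ZT12 and lights-on in DRF, and both differed between the regimens (-0.94, adjusted p = 0.00364, and -1.10, adjusted p = 0.0121), a call lost for both without ZT12 mice 3 and 4 (-0.84, adjusted p = 0.0555, and -1.02, adjusted p = 0.0995). Both also differed between ZT24 and ZT0 (unadjusted p = 8.54e-04 for Cirbp and 3.58e-06 for Rbm3). Of 14 feeding peptides and receptors, 2 were higher at an unadjusted p-value under 0.05 (over all genes 6.72%), the neuropeptide Y receptor Npy1r (0.27, SE 0.10) and the melanocortin receptor Mc4r (0.28, SE 0.12), and 2 were lower (5.82%), the insulin receptor Insr (-0.13, SE 0.05) and Glp1r (-0.29, SE 0.11). None of these 4 had such a p-value without ZT12 mice 3 and 4. Of 27 genes of cholesterol and fatty acid synthesis, Acacb, the acetyl-CoA carboxylase that restrains fatty acid oxidation, was lower (-0.35, SE 0.07, adjusted p = 0.112) and Acly was higher (0.18, SE 0.08, adjusted p = 0.381) at an unadjusted p-value under 0.05, 1 gene each way and a smaller share than over all genes. Without ZT12 mice 3 and 4, 4 of the 27 were higher (over all genes then 1.89%) and 1 was lower (then 2.3%). Acly was then at 0.10 (unadjusted p = 0.323). Of 24 immediate early genes, 1 was lower and 1 higher at that level, shares below those over all genes (5.82% and 6.72%). Without ZT12 mice 3 and 4, 2 were lower and 1 higher (over all genes then 2.3% and 1.89%). Their median went from 0.00 to -0.28 (over all genes 0.01 in both fits).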
